A study of Mus musculus with 13 samples.

Results

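Bmp2, Bmp4 and Bmp7 encode secreted ligands of the bone morphogenetic protein (BMP) pathway, and Msx1 and Msx2 encode homeobox transcription factors that BMP signalling induces. The CTCF and cohesin peaks of mouse limb chromatin were described around these 5 of 21938 protein-coding genes. The members were chosen by name, with earlier results of these data known, and no measured value is part of the rule. Each window held the gene body and 100 kb on each side (GENCODE M21, mm10), and a peak belonged to it when its summit lay inside. The windows were 211 kb at Bmp2, 207 kb at Bmp4, 272 kb at Bmp7, 204 kb at Msx1 and 206 kb at Msx2. Together they covered 1100 kb, or 0.0404% of chromosomes 1 to 19, X and Y. They held 55 of 69495 CTCF peaks of distal forelimb and 56 of 73682 of proximal forelimb. Of the cohesin peaks of distal forelimb they held 15 of 16498 for RAD21 and 18 of 23185 for SMC1.

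All tissue was limb of embryos at E12.5, profiled by chromatin immunoprecipitation and sequencing, with a single library in each group. Embryos of the CD1 strain, wild type, gave CTCF, RAD21 and SMC1 libraries of distal forelimb and a CTCF library of proximal forelimb. Homozygous embryos of 4 HoxD deletion alleles on a B6CBAF1 background, from crosses of heterozygous parents, gave a CTCF library each: del(1-13)d9lac, del(attP-Rel5)d9lac, del(8-13)d11lac and del(8-13)rXII. The allele del(8-13)rXII also gave a RAD21 library. The wild type of that background gave 1 CTCF and 1 RAD21 library. Forelimbs and hindlimbs were pooled in the B6CBAF1 libraries, with 1 exception. For del(8-13)rXII, CTCF was profiled with ChIPmentation, where adapters are added by a transposase while the chromatin is on beads, in forelimbs alone, so genotype, tissue and assay cannot be told apart in it. Its RAD21 library was sequenced in 2 runs. Fixation lasted 10 minutes for CTCF and 25 minutes for SMC1, while RAD21 samples had either time. Distal and proximal forelimb share the strain and the assay, and the labels do not say whether they came from the same embryos. The 2 H3K27ac samples were not analysed here.

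BMP ligands bind paired type I and type II receptor kinases, which phosphorylate SMAD proteins that enter the nucleus and act on targets such as the Msx and Id genes. In the limb bud, BMPs from the apical ridge and the mesenchyme act on outgrowth, digit patterning, cartilage formation and the death of the tissue between the digits, and Msx1 and Msx2 act redundantly downstream of them. CTCF is a zinc-finger protein that recognises an oriented motif. Cohesin, a ring complex with the subunits RAD21 and SMC1, extrudes chromatin loops and is halted at many CTCF sites, so that such sites frame the regulatory landscapes of developmental genes.

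The authors' lists give each peak a −log10 q, which measures how far its signal exceeds the local background, and a fold enrichment at the summit. Both depend on read depth, which is unknown. The median −log10 q of the CTCF lists ranged between 7.07 in del(8-13)rXII and 30.9 in del(8-13)d11lac, and was 23.7 in distal and 19.5 in proximal forelimb, so strengths are read within a list. Where values of the 4 alleles follow each other, their order is del(1-13)d9lac, del(attP-Rel5)d9lac, del(8-13)d11lac and del(8-13)rXII. Without replicates no difference between libraries was tested, and an absent peak means that none was called. In whole tissue, fewer cells with a bound site and less protein bound per cell cannot be told apart. Peak lists hold no expression, so the labelled tissue could not be checked against marker genes. Between the outer ends of Hoxd13 and Hoxd8, which del(1-13)d9lac and both del(8-13) alleles lack by name, 2 CTCF peaks were called in del(1-13)d9lac, 2 in del(attP-Rel5)d9lac, with 1 in del(8-13)d11lac and 0 in del(8-13)rXII, against 5 in wild-type limbs. Peaks were thus called inside the named deletions of del(1-13)d9lac and del(8-13)d11lac. In both d9lac alleles they lay 3.49 to 3.52 kb upstream and 0.026 to 0.041 kb downstream of the start of Hoxd9, and in del(8-13)d11lac 0.717 kb upstream of that of Hoxd11. Whether they come from the sequence that the d9lac and d11lac parts of the names stand for was not tested.

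Overlapping peaks of the 11 lists were joined into 69 sites, of which 67 had a CTCF peak in at least 1 list and 23 had a peak in all 7 CTCF lists. A CTCF matrix of 19 bp, with the consensus tggccaccagggggcgcca, was built from the strongest whole-limb summits of the genome, none of which lay in the windows. Matches to this matrix are shown because their strand gives the orientation that a bound motif there would have. They lie at strong sites, except at Bmp4, whose strongest site is weak. The Msx2 matches, except that 46.4 kb downstream, are weak. They score below the 11.1 bits that 1% of control windows, 2 kb away, reach. Each line gives the site by its distance from the start of the gene (upstream or downstream in the direction of transcription) and the coordinates on GRCm38 (mm10) of the printed bases. The sequence runs 5′ to 3′ on the motif's own strand, with the best match in capitals.
Bmp2 1.86 kb upstream, chr2:133550280-133550338, plus strand: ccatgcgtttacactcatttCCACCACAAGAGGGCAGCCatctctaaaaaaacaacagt
Bmp2 62.7 kb downstream, chr2:133614817-133614875, plus strand: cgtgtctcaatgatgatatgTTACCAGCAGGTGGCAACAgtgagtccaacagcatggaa
Bmp4 27.3 kb downstream, chr14:46363370-46363428, plus strand: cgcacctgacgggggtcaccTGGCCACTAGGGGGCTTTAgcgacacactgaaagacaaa
Bmp7 59.5 kb upstream, chr2:172999742-172999800, plus strand: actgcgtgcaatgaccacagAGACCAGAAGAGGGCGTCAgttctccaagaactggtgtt
Bmp7 92.0 kb downstream, chr2:172848344-172848402, minus strand: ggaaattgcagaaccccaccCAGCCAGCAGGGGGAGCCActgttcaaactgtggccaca
Bmp7 109 kb downstream, chr2:172831249-172831307, plus strand: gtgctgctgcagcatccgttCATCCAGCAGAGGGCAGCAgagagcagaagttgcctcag
Bmp7 167 kb downstream, chr2:172773327-172773385, minus strand: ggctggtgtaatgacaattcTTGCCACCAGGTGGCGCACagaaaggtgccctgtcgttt
Msx1 72.0 kb downstream, chr5:37752519-37752577, minus strand: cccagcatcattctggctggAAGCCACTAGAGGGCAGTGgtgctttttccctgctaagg
Msx2 11.02 kb downstream, chr13:53462010-53462068, plus strand: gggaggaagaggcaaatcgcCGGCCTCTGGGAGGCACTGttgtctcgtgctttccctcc
Msx2 30.6 kb downstream, chr13:53442488-53442546, plus strand: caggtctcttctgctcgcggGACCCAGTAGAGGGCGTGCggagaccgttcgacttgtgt
Msx2 46.4 kb downstream, chr13:53426641-53426699, minus strand: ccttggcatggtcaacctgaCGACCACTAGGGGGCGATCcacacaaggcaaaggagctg
Msx2 79.0 kb downstream, chr13:53394065-53394123, minus strand: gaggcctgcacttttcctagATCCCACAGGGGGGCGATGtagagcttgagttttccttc

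At 2 strong Msx1 sites no match passed the threshold of 5.55 bits, which 5% of control windows pass. They are printed because, of the distal peaks shared with proximal forelimb, theirs had the weakest proximal partners for their strength. Each is shown on the plus strand over 121 bp around the summit, with the best match below the threshold in capitals.
Msx1 7.56 kb downstream, chr5:37816967-37817087, plus strand: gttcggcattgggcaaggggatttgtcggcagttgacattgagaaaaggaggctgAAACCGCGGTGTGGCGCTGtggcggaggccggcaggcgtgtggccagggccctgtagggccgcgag
Msx1 70.9 kb upstream, chr5:37895448-37895568, plus strand: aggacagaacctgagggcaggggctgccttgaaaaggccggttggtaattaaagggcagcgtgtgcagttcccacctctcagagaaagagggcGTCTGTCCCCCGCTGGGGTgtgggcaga
The match in the first of these scored -1.43 bits on the plus strand and that in the second 4.79 bits on the minus strand, so the capitals of the second read as the complement of a motif. GC bases made up 65.3% of the first stretch, with 10 CpG dinucleotides, and 60.3% of the second, with 4.

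**Figure D1:**
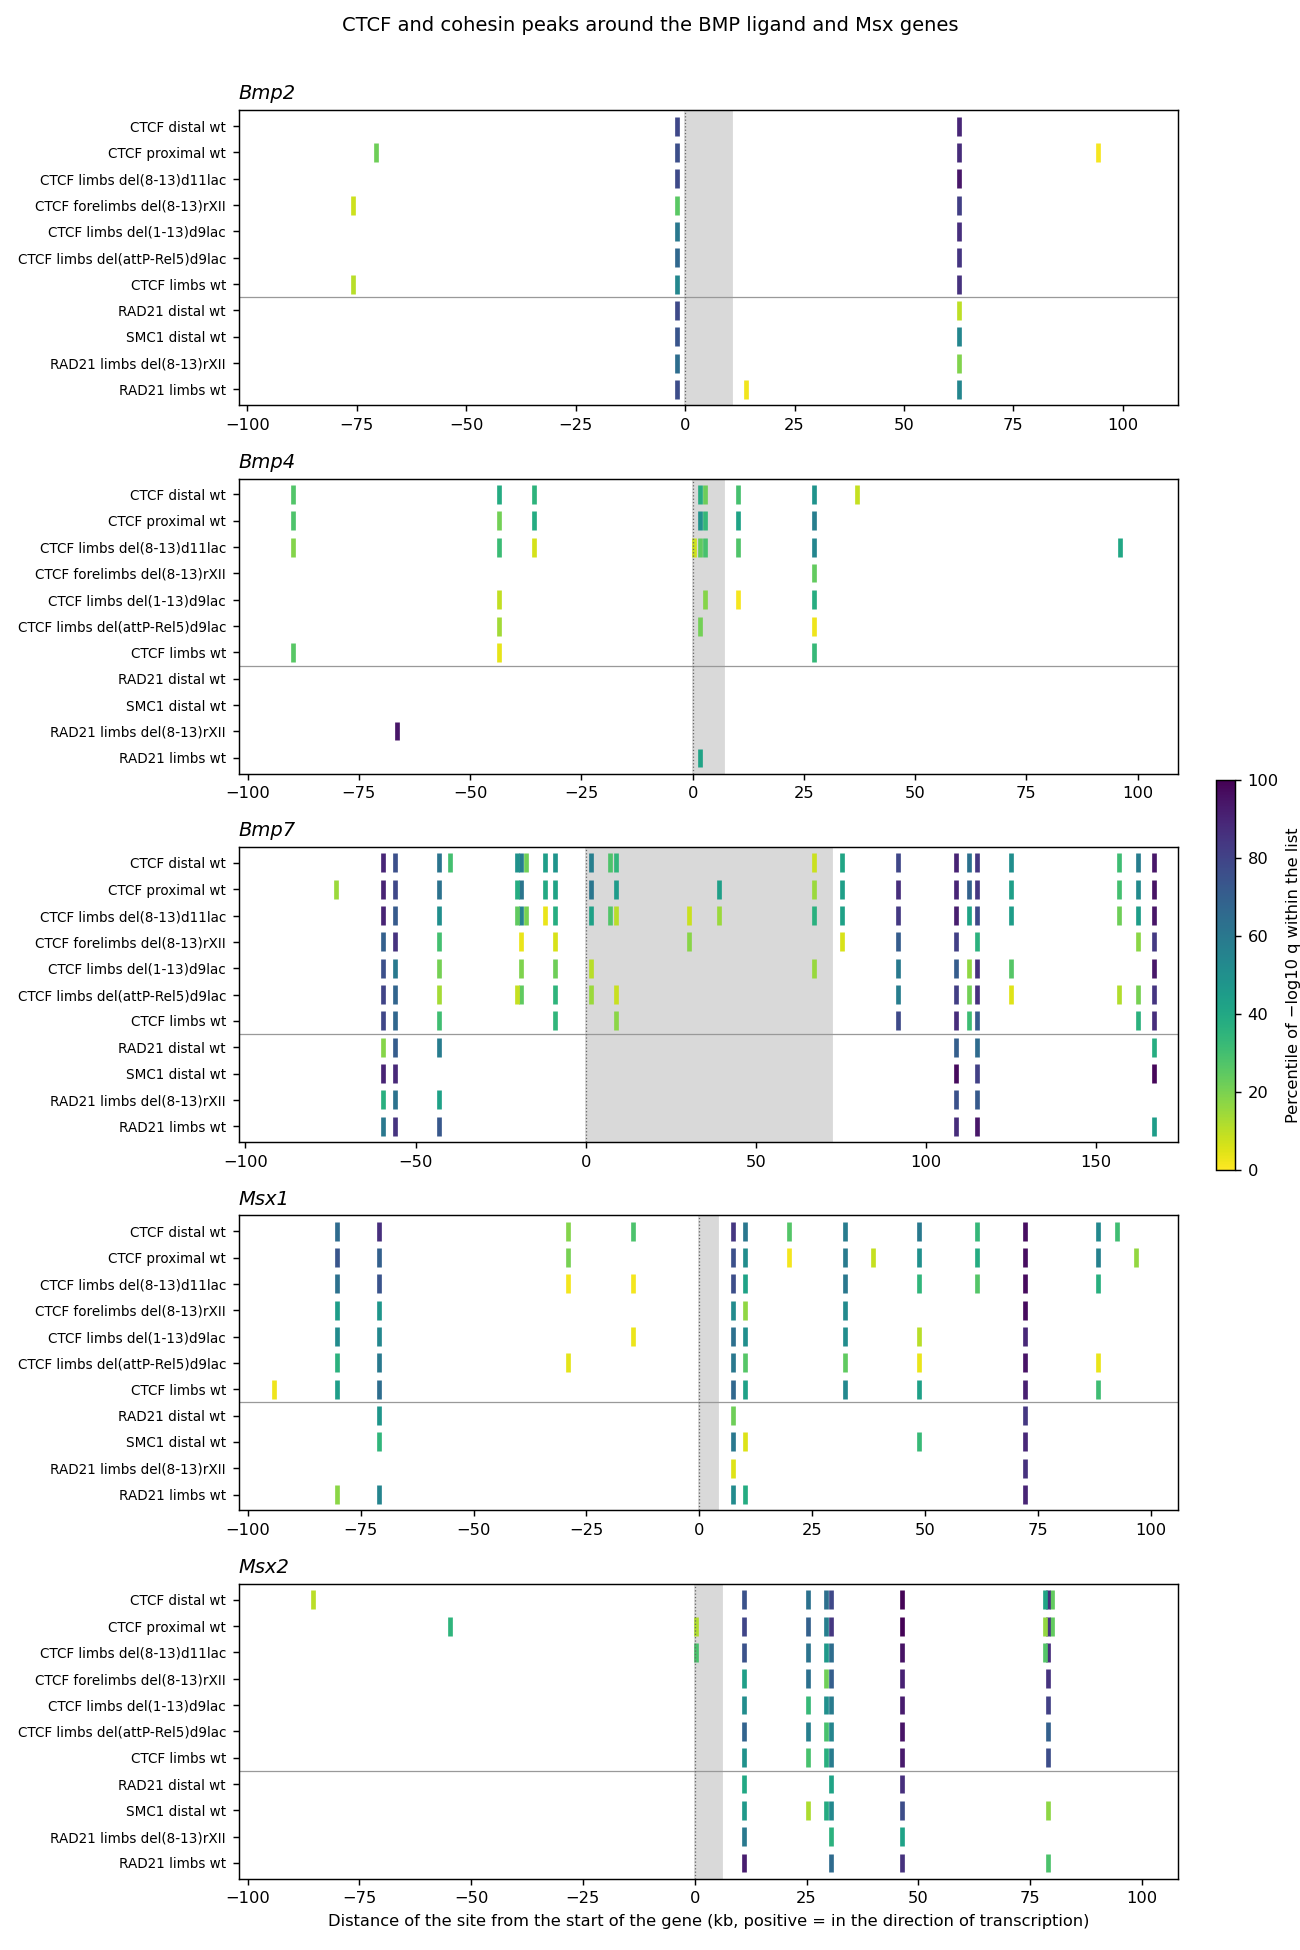
Peaks of the 11 lists around each gene, 1 row per list, by distance from the start of the gene in kb; grey marks the gene body, and colour gives the percentile of the peak's −log10 q within its list. Bmp2 had 2 strong sites and Bmp7 a cluster on each side, Bmp4 had weak CTCF peaks with little cohesin, and the 6 Msx2 sites of all 7 CTCF lists lay on its downstream side.

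The genes differed in how densely CTCF peaks surrounded them. Bmp7 had the most, with 23 peaks in distal and 22 in proximal forelimb. Msx1 had 13 in each, Msx2 had 9 in distal and 10 in proximal forelimb, Bmp4 had 8 in distal and 7 in proximal forelimb, and Bmp2 had 2 in distal and 4 in proximal forelimb. Per 100 kb of window, Bmp7 had 8.45 distal and 8.08 proximal peaks, against medians over all protein-coding genes of 4.28 and 4.40. This put the Bmp7 window at percentile 91.3 of all genes in distal and 88.1 in proximal forelimb. The Bmp2 window stood at percentile 8.43 in distal and 16.5 in proximal forelimb. In distal forelimb Msx1 stood at percentile 75.5, Msx2 at 51.2 and Bmp4 at 44.3, and in proximal forelimb Msx1 stood at 73.8, Msx2 at 55.8 and Bmp4 at 35.4. Over RAD21 of distal forelimb the order changed: Bmp7 was again high at percentile 95.03, but Bmp4 had no peak, as did 16.9% of genes. Bmp2, with 2 RAD21 peaks, stood at percentile 50.7. Thus both CTCF peaks of Bmp2 carried RAD21 in distal forelimb, and none of the 8 of Bmp4 did, against 22.8% of all distal CTCF peaks. The CTCF peaks also differed in strength, with a −log10 q of 100.4 and 159 at Bmp2 and at most 22.4 at Bmp4. Most of the 5151 distal CTCF peaks about as strong as the strongest of Bmp4 (−log10 q within a factor of 1.2) also lacked RAD21. Bmp7 did not lead in every list. For SMC1 of distal forelimb it stood at percentile 62.7, below Msx2 at 87.5 and Msx1 at 80.2. In wild-type limbs Bmp7 and Msx1 were close, at percentiles 78.3 and 78.4 for CTCF and 73.1 and 70.1 for RAD21.

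**Figure D2:**
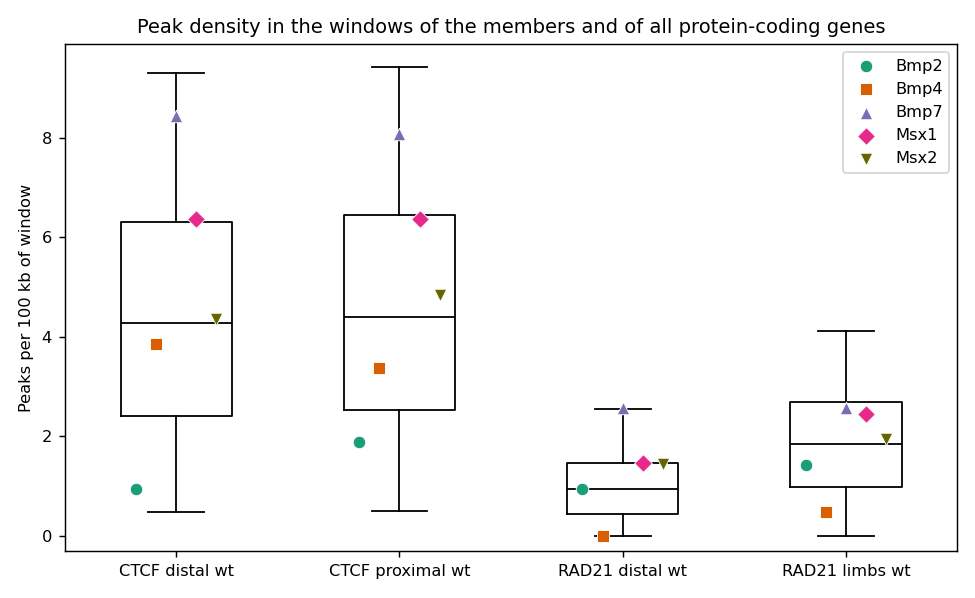
Peaks per 100 kb of window for the 5 genes (symbols) and all 21938 protein-coding genes (boxes give the quartiles and median, whiskers the 5th and 95th percentiles) in 4 lists. Bmp7 lies above the upper quartile in both CTCF lists of forelimb parts, and Bmp4 lies at 0 for RAD21 of distal forelimb.

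Bmp2, a ligand of the ridge and the interdigital mesenchyme, had 2 sites that were called in all 11 lists and little else. The gene lies at chr2:133552159-133562885 on the plus strand, and its window holds no other protein-coding gene. The promoter-side site, chr2:133550072-133550643, had its summit 1.86 kb upstream of the start. Its CTCF −log10 q was 100.4 in distal and 82.5 in proximal forelimb, 22.7 in del(1-13)d9lac, 40.5 in del(attP-Rel5)d9lac, then 105 in del(8-13)d11lac, 4.00 in del(8-13)rXII and 19.6 in wild-type limbs. Its cohesin −log10 q was 29.6 for RAD21 and 20.4 for SMC1 in distal forelimb, and for RAD21 20.4 in del(8-13)rXII and 47.4 in wild-type limbs. The downstream site, chr2:133614516-133615187, lay 62.7 kb from the start in intergenic DNA. CTCF there had a −log10 q of 159 in distal and 142 in proximal forelimb, 54.5, 72.0, 189 and 14.5 in the 4 alleles, and 59.5 in wild-type limbs. Cohesin there reached 4.54 for RAD21 and 12.52 for SMC1 in distal forelimb, and for RAD21 6.29 in del(8-13)rXII and 16.6 in wild-type limbs. CTCF was thus stronger at the downstream site in every CTCF list, and cohesin was stronger at the promoter-side site in every cohesin list. The 2 sites lie 64.6 kb apart with the gene between them, and both motifs, CCACCACAAGAGGGCAGCC and TTACCAGCAGGTGGCAACA, read on the plus strand. Weak peaks without a partner made up the rest. A site 75.9 kb upstream had a −log10 q of 2.30 in del(8-13)rXII and 3.75 in wild-type limbs, and proximal forelimb alone had peaks 70.6 kb upstream (5.60) and 94.3 kb downstream (1.73). A RAD21 peak of wild-type limbs, chosen after its value was seen, lay 13.9 kb downstream with a −log10 q of 1.65 and no CTCF.

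Bmp4, a ligand that also acts in the ridge and the distal mesenchyme, was surrounded by weak CTCF sites. The gene lies at chr14:46383520-46390669 on the minus strand. Its strongest site by whole limbs, chr14:46363145-46363756, lay 27.3 kb downstream and was the only one of its 10 CTCF sites in all 7 CTCF lists. Its −log10 q was 22.4 in distal and 29.1 in proximal forelimb, 10.6 in del(1-13)d9lac, 2.86 in del(attP-Rel5)d9lac, then 37.5 in del(8-13)d11lac, 3.85 in del(8-13)rXII and 9.08 in wild-type limbs. It had no peak in any cohesin list. No CTCF site of Bmp4 exceeded a −log10 q of 22.4 in distal or 29.1 in proximal forelimb, while the strongest of each other gene reached at least 159 in distal and 142 in proximal forelimb. The next sites by whole limbs lay 89.7 kb upstream, with 8.18 in distal and 7.02 in proximal forelimb and 6.96 in wild-type limbs, and 43.5 kb upstream, with 13.4 in distal and 5.39 in proximal forelimb and 2.27 in wild-type limbs. The site 43.5 kb upstream was also called in del(8-13)d11lac (13.5), del(1-13)d9lac (3.77) and del(attP-Rel5)d9lac (5.86), and that 89.7 kb upstream in del(8-13)d11lac (7.76).

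Inside Bmp4, 2 sites chosen after their values were seen lay in an intron that overlaps an exon of the antisense transcript Gm15222. The site 1.76 kb downstream of the start had a CTCF −log10 q of 12.8 in distal and 18.9 in proximal forelimb, 9.73 in del(8-13)d11lac and 7.59 in del(attP-Rel5)d9lac. It had the only RAD21 peak of wild-type limbs at Bmp4 (9.50), without a CTCF peak in that tissue. The site 2.79 kb downstream had 6.75 in distal and 8.91 in proximal forelimb, 12.0 in del(8-13)d11lac and 5.18 in del(1-13)d9lac, and no cohesin. Neither had a motif above the threshold. A peak in a Bmp4 UTR, 0.361 kb from the start, was called in del(8-13)d11lac alone (4.84).

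The strongest cohesin peak near Bmp4 was found in a mutant library only. In RAD21 of del(8-13)rXII, a peak of 398 bp at chr14:46456967-46457364, 66.5 kb upstream of Bmp4, had a −log10 q of 54.1 and a fold enrichment of 12.1, at percentile 94.2 of its list. It was named after its value was seen. No other list had a peak there, CTCF included, and the best match to the CTCF matrix near its summit scored -17.4 bits. Of the 924 RAD21 peaks of del(8-13)rXII at least as strong, 5 (0.541%) overlapped no wild-type cohesin or CTCF peak, and 2 of these 5 were on chromosome 14. This was the 1 new peak among the 14 RAD21 peaks of del(8-13)rXII in the windows, against 3.51% of all RAD21 peaks of that list. In the reference, 92.7% of the peak's bases are marked as repeats, against a median of 8.64% over the 15927 peaks of that list, and 2.32% of them were marked as much or more. The library had no replicate and the reads were not looked at, so whether the signal arose at this place was not tested.

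Bmp7, a ligand expressed in the ridge and in limb mesenchyme, was flanked by a cluster of shared CTCF and cohesin sites on each side, with weak CTCF sites between them. The gene, at chr2:172868012-172940321 on the minus strand, is the longest of the 5. Upstream of it lie Spo11, which encodes the enzyme that makes meiotic double-strand breaks, Rae1, which encodes an mRNA export factor, and Rbm38, which encodes an RNA-binding protein. Of its 25 CTCF sites, 8 were in all 7 CTCF lists: 4 upstream, 4 downstream and none of the 6 inside the gene. Cohesin was at 3 of the upstream and 3 of the downstream sites. The nearest sites of all 7 CTCF lists on the 2 sides lay 8.87 kb upstream and 92.0 kb downstream of the start, and neither had cohesin in any list. Both were chosen after their values were seen.

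The strongest Bmp7 site by whole limbs was chr2:172830994-172832208, 109 kb downstream. The −log10 q of CTCF was 163 in distal and 156 in proximal forelimb, 32.6, 65.2, 173 and 14.4 in the 4 alleles, and 62.8 in wild-type limbs. Its cohesin −log10 q was 24.0 for RAD21 and 50.8 for SMC1 in distal forelimb, and for RAD21 26.9 in del(8-13)rXII and 77.5 in wild-type limbs. It thus had a peak in all 11 lists. The outermost site, chr2:172772941-172773687, lay 167 kb downstream. Its CTCF −log10 q was 191 in distal and 196 in proximal forelimb, 74.1, 72.1, 191 and 15.02 in the 4 alleles, and 62.5 in wild-type limbs. Its SMC1 peak in distal forelimb (57.9) was the strongest of the windows in that list, while RAD21 reached 10.2 in distal forelimb and 10.7 in wild-type limbs and was not called in del(8-13)rXII. The third site, chr2:172999521-173000420, lay 59.5 kb upstream of Bmp7 and 334 bp from the start of Rae1. CTCF there had a −log10 q of 158 in distal and 160.2 in proximal forelimb, 37.8, 61.8, 163 and 11.1 in the 4 alleles, and 47.1 in wild-type limbs. Cohesin there was 6.09 for RAD21 and 33.4 for SMC1 in distal forelimb, and for RAD21 10.2 in del(8-13)rXII and 21.7 in wild-type limbs.

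Other Bmp7 sites, chosen after their values were seen, set CTCF apart from cohesin. The site 92.0 kb downstream, chr2:172847985-172848650, had CTCF in all 7 lists and cohesin in none. The −log10 q of CTCF was 104 in distal and 138 in proximal forelimb, 22.4, 29.9, 129.5 and 11.4 in the 4 alleles, and 45.1 in wild-type limbs. Its motif, CAGCCAGCAGGGGGAGCCA, was on the minus strand. Of whole-limb CTCF peaks of like strength (a −log10 q within a factor of 1.2), 16.1% had no whole-limb RAD21 peak, and in distal forelimb the share was 47.4%. In an intron of Spo11, 43.0 kb upstream of Bmp7, RAD21 ranked above CTCF in wild-type limbs, but not in distal forelimb. CTCF there reached 43.1 in distal and 37.9 in proximal forelimb, 5.90, 5.70, 32.6 and 4.38 in the 4 alleles and 8.35 in wild-type limbs, while RAD21 reached 17.7 in distal forelimb, 11.7 in del(8-13)rXII and 40.1 in wild-type limbs. Only 2.95% of whole-limb CTCF peaks of like strength had a RAD21 peak as strong. No SMC1 peak was called at the Spo11 intron site. Within the lists, RAD21 there stood at percentile 73.0 and CTCF at 30.7 in wild-type limbs, against 58.3 and 61.5 in distal forelimb. In del(8-13)rXII they stood at 42.7 and 29.8.

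Msx1, which encodes a homeobox factor of the distal mesenchyme, had 16 CTCF sites, of which 6 were in all 7 CTCF lists. The gene lies at chr5:37820485-37824583 on the minus strand, and the other protein-coding gene of the window is Cytl1, which encodes a secreted cytokine-like protein. No site lay within Msx1, and 11 of the 16 were downstream. The strongest, chr5:37752183-37752891, lay 72.0 kb downstream between Msx1 and Cytl1 and was in all 11 lists. Its CTCF −log10 q was 214 in distal and 209 in proximal forelimb, 59.9, 105, 218 and 24.8 in the 4 alleles, and 74.1 in wild-type limbs. Its cohesin −log10 q was 36.5 for RAD21 and 32.0 for SMC1 in distal forelimb, and for RAD21 37.4 in del(8-13)rXII and 85.5 in wild-type limbs. Distal and proximal forelimb were alike at this site.

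At 2 other strong Msx1 sites the CTCF −log10 q was higher in the distal than in the proximal list, and these values also depend on the unknown read depth. The site 7.56 kb downstream, chr5:37816758-37817263, had a CTCF −log10 q of 128 in distal and 81.2 in proximal forelimb, 25.6, 32.3, 101 and 7.48 in the 4 alleles and 31.1 in wild-type limbs. The fold enrichment was 12.9 in distal and 10.5 in proximal forelimb. Its cohesin −log10 q was 6.81 for RAD21 and 14.4 for SMC1 in distal forelimb, and for RAD21 3.54 in del(8-13)rXII and 15.1 in wild-type limbs. The site 70.9 kb upstream, chr5:37895272-37895864, in an intron of the lincRNA Gm20052, had a CTCF −log10 q of 142 in distal and 58.3 in proximal forelimb, 18.4, 31.8, 92.5 and 6.68 in the 4 alleles and 28.7 in wild-type limbs. The fold enrichment was 15.3 in distal and 9.20 in proximal forelimb. RAD21 (13.5) and SMC1 (7.55) were called at it in distal forelimb, and RAD21 in wild-type limbs (17.1) but not in del(8-13)rXII. The site 80.3 kb upstream, chosen after its values were seen, leaned the other way in CTCF, with 52.8 in distal and 70.1 in proximal forelimb. No cohesin list of proximal forelimb was used here, so cohesin could not be compared between the forelimb parts.

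Msx2, which encodes the second homeobox factor, had all 6 of its sites of the 7 CTCF lists on its downstream side, between 11.02 and 79.0 kb from the start, and all 6 carried cohesin in at least 1 list. The gene lies at chr13:53466884-53473074 on the minus strand. Upstream, the 100 kb held 1 proximal-only and 1 distal-only peak. The site 46.4 kb downstream, chr13:53426341-53427001, in an intron of the lincRNA Gm2762, was the strongest of all 5 windows in both forelimb parts. CTCF there had a −log10 q of 255 in distal and 264 in proximal forelimb, 69.6, 105, 198 and 18.7 in the 4 alleles, and 79.7 in wild-type limbs. Its cohesin −log10 q was 40.1 for RAD21 and 22.1 for SMC1 in distal forelimb, and for RAD21 11.7 in del(8-13)rXII and 72.2 in wild-type limbs. In distal forelimb it stood at percentile 99.0 of all CTCF peaks.

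The site 79.0 kb downstream, chr13:53393866-53394369, lay in an exon of Gm2762. The −log10 q of CTCF was 142 in distal and 126 in proximal forelimb, 44.7, 44.9, 148 and 16.1 in the 4 alleles, and 43.9 in wild-type limbs, with weak cohesin: SMC1 of distal forelimb reached 4.64, RAD21 of wild-type limbs 5.52, and the other 2 cohesin lists had no peak. The site 30.6 kb downstream, chr13:53442265-53442767, had weaker CTCF and stronger cohesin. Its CTCF −log10 q was 100.5 in distal and 123 in proximal forelimb, 21.7, 26.5, 61.4 and 11.3 in the 4 alleles, and 23.2 in wild-type limbs. RAD21 reached 11.5 and SMC1 12.2 in distal forelimb, and RAD21 10.0 in del(8-13)rXII and 28.4 in wild-type limbs. The site nearest to Msx2 of those in all lists, 11.02 kb downstream at chr13:53461767-53462416, was chosen after its values were seen. CTCF there had a −log10 q of 85.3 in distal and 97.8 in proximal forelimb, 16.8, 42.7, 94.4 and 6.09 in the 4 alleles, and 16.6 in wild-type limbs. RAD21 was 10.9 and SMC1 10.2 in distal forelimb, and RAD21 was 18.0 in del(8-13)rXII and 96.6 in wild-type limbs. The 3 RAD21 lists thus placed this site at different ranks, which the cohesin comparison takes up.

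CTCF summits within 1 kb of the start were found at 0 to 2 of the 5 genes, depending on the list. In distal forelimb 0 of the 5 genes had one, against 23.3% of all genes. In proximal forelimb 1 did, Msx2, against 23.4%. That peak lay 0.281 kb from the start in a UTR of Msx2, with a −log10 q of 3.602 in proximal forelimb and 11.9 in del(8-13)d11lac, and no distal peak. In del(8-13)d11lac 2 genes had one, Bmp4 and Msx2, against 22.9% of genes. None of the 5 had one in del(1-13)d9lac (16.5% of genes), del(attP-Rel5)d9lac (17.2%), del(8-13)rXII (12.2%) or wild-type limbs (16.7%). Cohesin summits within 1 kb were likewise at none of the 5, against 5.35% of genes for RAD21 and 9.44% for SMC1 in distal forelimb, and for RAD21 4.51% in del(8-13)rXII and 14.1% in wild-type limbs. Counts over 5 genes are too small to be read against these shares.

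Distal and proximal forelimb shared most CTCF sites of the 5 genes. Of the distal peaks, 48 of 55 overlapped a proximal peak, or 87.3% (Wilson 95% interval 76.0 to 93.7, for counting error only), against 82.6% of all distal peaks. Of the proximal peaks, 48 of 56 overlapped a distal peak, or 85.7% (74.3 to 92.6), against 77.8%. The peaks of a single forelimb part were weak. The 7 distal-only sites had −log10 q of 3.45 to 9.45 (median 8.26), and the 8 proximal-only sites of 1.73 to 14.0 (median 4.24). At the 47 shared sites the median was 35.7 in distal and 28.7 in proximal forelimb. By gene, 2 of 2 distal peaks of Bmp2, 7 of 8 of Bmp4, 20 of 23 of Bmp7, 11 of 13 of Msx1 and 8 of 9 of Msx2 had a proximal peak.

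The distal-only peaks were at all genes but Bmp2. Msx1 had 1 in distal forelimb alone, 92.4 kb downstream (9.45) with a minus-strand motif, and 1 that was also called in del(8-13)d11lac (3.02) and del(1-13)d9lac (2.22), 14.8 kb upstream (8.41). Bmp7 had 3: in an intron of Spo11 39.8 kb upstream (8.92), in its own intron 7.15 kb downstream (8.26, and 11.1 in del(8-13)d11lac), and 17.6 kb upstream (6.40, and 8.53 in del(8-13)d11lac). Bmp4 had 1 at 37.0 kb downstream (3.45), and Msx2 had 1 at 85.4 kb upstream (3.89). The strongest proximal-only peak lay in an intron of Bmp7, 39.2 kb downstream (14.0, and 6.87 in del(8-13)d11lac). Msx2 had another 54.7 kb upstream in an intron of the lincRNA Gm34022 (9.57). The other proximal-only peaks were those of Bmp2 and the Msx2 promoter given above, 1 of Bmp7 73.3 kb upstream (4.12) and 2 of Msx1, 96.8 kb (4.35) and 38.6 kb (3.10) downstream.

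**Figure D3:**
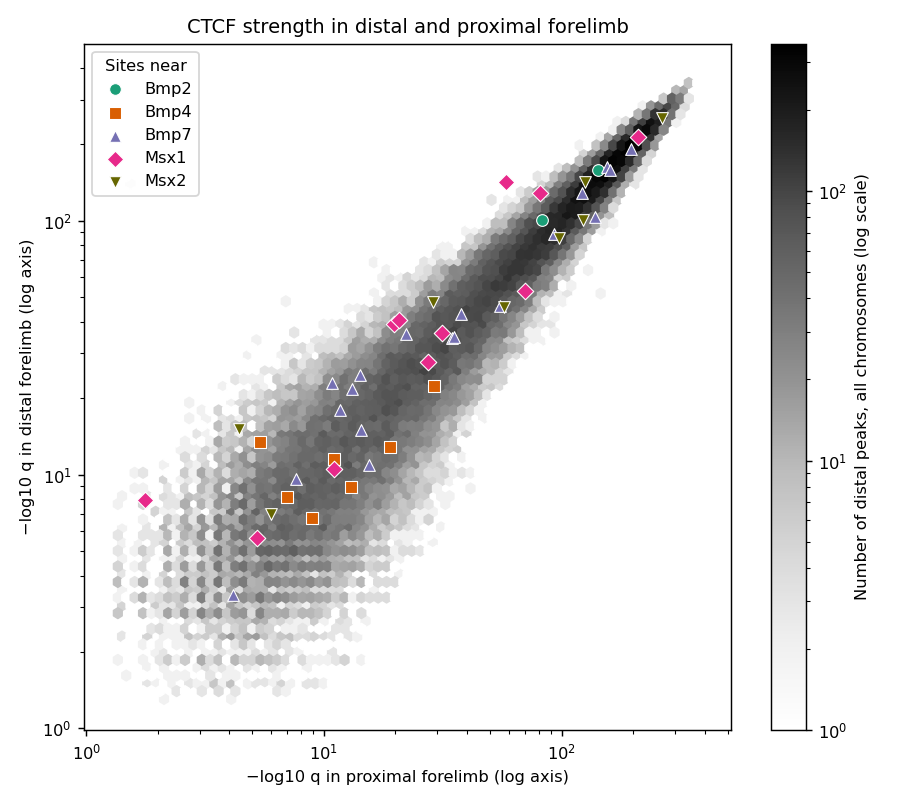
CTCF −log10 q in distal (vertical) against proximal forelimb (horizontal), both on log axes, for sites near the 5 genes (symbols) over all shared peaks (grey, number per hexagon on a log scale). The Msx1 site 70.9 kb upstream, at 142 in distal and 58.3 in proximal forelimb, stands near the upper edge of the cloud of all peaks.

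The shared site that departed most from its peers was the Msx1 site 70.9 kb upstream. Its proximal −log10 q of 58.3 was lower than the partner of nearly all of the 6476 distal peaks of like strength, whose median partner was 139.7 (percentile 0.154). Only 39 of 69495 distal peaks stood at or below that percentile. Distal peaks without a proximal peak share a tied rank, such as 10.4 for the Msx1 site 92.4 kb downstream. Weak ones among the 69495 could thus not reach it, nor fall below percentile 5. Read from the proximal side, the distal value of the site 70.9 kb upstream was at percentile 99.9 among 4736 proximal peaks of like strength. The Msx1 site 7.56 kb downstream stood at percentile 2.44 of 6279 distal peaks, with a median partner of 127. These were the 2 of 55 distal peaks of the windows with a partner below percentile 5, against 2.2% of all distal peaks. In the other direction 1 of 55 was above percentile 95, the Bmp7 site 92.0 kb downstream at percentile 95.1, against 3.81% of all distal peaks. With like strength within a factor of 1.5 that site stood at 83.3 and the count was 0.

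From the proximal list, 7 of 56 peaks had a distal partner above percentile 95 of like-strength peaks, against 3.93% of all proximal peaks, and 5 of these 7 were among the 13 of Msx1. They were the 2 sites above and, chosen after their values were seen, those 48.7, 19.8 and 10.2 kb downstream. The site 48.7 kb downstream had 39.0 in distal and 19.6 in proximal forelimb, that at 19.8 kb had 7.92 in distal and 1.77 in proximal forelimb, and that at 10.2 kb had 40.5 in distal and 20.8 in proximal forelimb. The other 2 of the 7 were a Bmp4 site 43.5 kb upstream (13.4 in distal and 5.39 in proximal forelimb) and an Msx2 site 78.3 kb downstream, chosen after its values were seen (15.1 in distal and 4.38 in proximal forelimb). Over all 13 proximal peaks of Msx1, 3 had a distal partner below the like-strength median, against 24 of the 56 of all 5 genes. Read from the distal list, the proximal partner was below the median for 8 of the 13 peaks of Msx1, against 29 of the 55 of all 5 genes. A distal partner below percentile 5 was found for 1 of the 56, the proximal-only peak in the Bmp7 intron, which has none, against 2.11%. Weaker proximal-only peaks hold higher tied ranks, such as 10.6 for that of Msx2 54.7 kb upstream, and could not fall below percentile 5. Where like strength was taken as within a factor of 1.5, 3 of 56 proximal peaks were above percentile 95, 2 of them of Msx1, and 1 of 55 distal peaks was below percentile 5. The Msx1 site 70.9 kb upstream then stood at percentile 0.290 of distal peaks and that 7.56 kb downstream at 7.37. No replicate bears on these differences.

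Cohesin sat at a minority of the CTCF peaks of distal forelimb. RAD21 overlapped 15 of 55 distal CTCF peaks of the windows, or 27.3% (17.3 to 40.2), against 22.8% of all. SMC1 overlapped 19 of 55, or 34.5% (23.4 to 47.7), against 31.0%. In wild-type limbs, 18 of 33 CTCF peaks had RAD21, or 54.5% (38.0 to 70.2), against 51.5%. The share over the whole list lay inside the counting interval in each case. Cohesin without CTCF was not seen in distal forelimb: 0 of 15 RAD21 peaks (upper limit 20.4%, against 3.45% of all) and 0 of 18 SMC1 peaks (17.6%, against 6.05%) lacked a distal CTCF peak. Of the wild-type whole-limb RAD21 peaks, 2 of 20 had no CTCF peak in that tissue, or 10.0% (2.79 to 30.1), against 33.6% of all. These were the Bmp2 site 13.9 kb downstream and the intronic Bmp4 site. The 20 peaks were stronger than their list, with a median −log10 q of 25.1 against 13.6. The 2 subunits mostly coincided: 14 of 15 distal RAD21 peaks had SMC1 (87.9% of all) and 13 of 18 SMC1 peaks had RAD21 (62.5%). The exception among RAD21 peaks was the Bmp7 site in the Spo11 intron. All 15 distal RAD21 peaks overlapped a RAD21 peak of wild-type limbs, against 96.5%.

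By gene, all 11 sites that were called in all 4 cohesin lists were also in all 7 CTCF lists: 2 at Bmp2, 4 at Bmp7, 2 at Msx1, 3 at Msx2 and none at Bmp4. At 4 sites of all 7 CTCF lists no cohesin was called in any list: the Bmp4 site 27.3 kb downstream, the Bmp7 sites 92.0 kb downstream and 8.87 kb upstream, and an Msx1 site 32.2 kb downstream, the last 3 chosen after their values were seen. Such sites were not counted over the whole genome, so these counts do not set the 5 genes apart. Most of the 4360 whole-limb CTCF peaks of like strength to the Bmp4 site also lacked RAD21. The Msx1 site 32.2 kb downstream had a CTCF −log10 q of 36.2 in distal and 31.4 in proximal forelimb and 19.4 in wild-type limbs. SMC1 alone was called in distal forelimb at 5 sites: at Msx1 10.2 kb (2.72) and 48.7 kb (7.25) downstream, and at Msx2 25.3 kb (3.87), 29.3 kb (8.54) and 79.0 kb (4.64) downstream. These sites were chosen after their values were seen. The values were low in the SMC1 list, where the median over all peaks was 11.3.

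**Figure D4:**
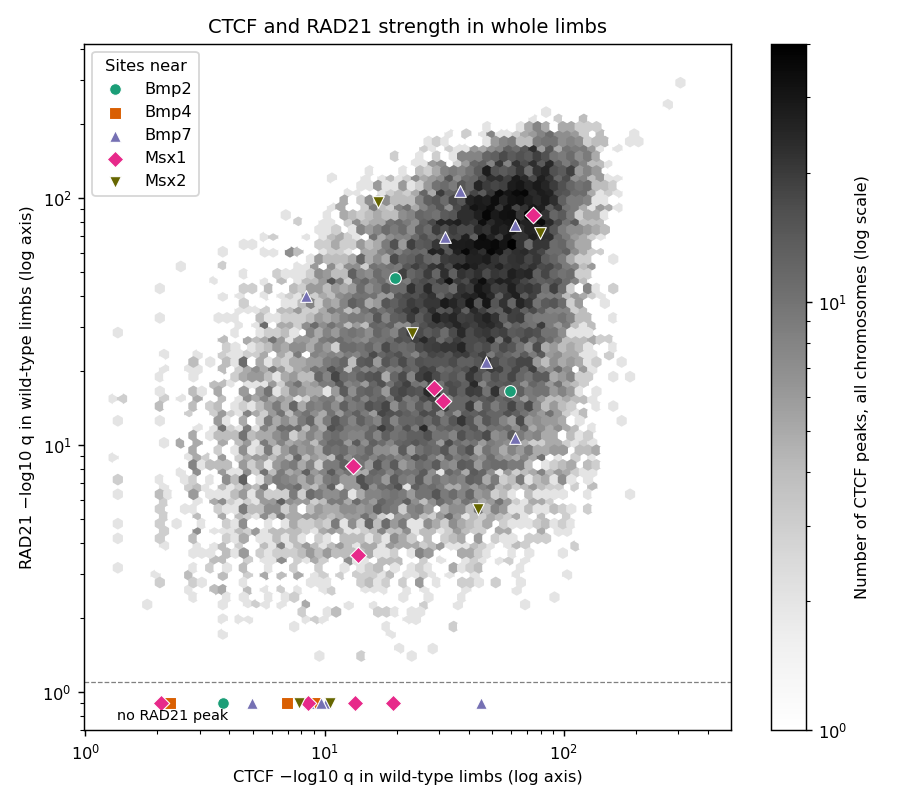
RAD21 against CTCF −log10 q in wild-type limbs, both on log axes, for CTCF sites near the 5 genes (symbols) over all CTCF peaks with RAD21 (grey). Sites without a RAD21 peak lie on the strip at the bottom; the Msx2 site 11.02 kb downstream, at 96.6 for RAD21 and 16.6 for CTCF, stands at the upper left of the cloud.

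Set against CTCF of like strength, RAD21 stood out at 2 of the 33 whole-limb CTCF peaks, with a partner above percentile 95, against 4.95% of all. They were the Msx2 site 11.02 kb downstream, where 1.31% of like-strength peaks had RAD21 as strong, and the Bmp7 site in the Spo11 intron. None was below percentile 5, against 0.91%. Peaks without RAD21 share a tied rank, at 35.6 for the Bmp4 site 27.3 kb downstream. Weak CTCF peaks could thus not fall below percentile 5, and the absence of such peaks says little. The RAD21 value of this Msx2 site in wild-type limbs was the reason for choosing it, so lower values in other libraries are a description only. Among 2382 whole-limb RAD21 peaks of like strength, its value in distal forelimb (10.9) stood at percentile 1.13, below a median of 33.4. It was the 1 of 20 below percentile 5, against 1.3% of all, and 3 of 20 were above percentile 95, against 3.96%. In del(8-13)rXII its value (18.0) stood at percentile 3.904, below a median of 32.2, or 10.4 with the factor of 1.5. The Msx2 site 46.4 kb downstream was also below percentile 5 there, at 4.32, or 8.74 with the factor of 1.5. These were 2 of the 20 whole-limb RAD21 peaks, against 1.08% of all, and 0 of 20 with the factor of 1.5, while 0 of 20 were above percentile 95, against 3.66%. The distal and whole-limb libraries differ in strain and in the limbs used, so tissue, strain and library cannot be told apart here. Of the 55 distal CTCF peaks, 4 had an SMC1 partner above percentile 95 of like-strength peaks, against 4.05% of all, and 0 had one below percentile 5, against 0.581%. Peaks without SMC1 share tied ranks too, at 45.2 for the Bmp4 site 27.3 kb downstream, so weak ones could not fall below percentile 5. The 4 with a partner above percentile 95 lay at 3 Bmp7 sites, the one 109 kb downstream holding 2 of them. The percentile of the stronger CTCF peak of each site was 97.5 at 167 kb downstream, 97.2 at 109 kb downstream and 96.9 at 56.1 kb upstream. This last site, chosen after its values were seen, lies 3700 bp from the start of Rae1, with a distal CTCF −log10 q of 88.4 and SMC1 of 31.9.

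Most whole-limb CTCF peaks near the 5 genes were also called in the HoxD deletion alleles. Bmp2 and Bmp7 share chromosome 2 with HoxD, and the other genes are on other chromosomes. Of the 33 whole-limb CTCF peaks, 27 were also called in del(1-13)d9lac, or 81.8% (65.6 to 91.4), against 80.0% of all. For del(attP-Rel5)d9lac the number was 30, or 90.9% (76.4 to 96.9), against 82.8%. It was 31 for del(8-13)d11lac, or 93.9% (80.4 to 98.3), against 91.8%, and 26 for del(8-13)rXII, or 78.8% (62.2 to 89.3), against 70.3%. The missing peaks were weak in wild-type limbs, with a −log10 q of at most 10.2 for del(1-13)d9lac, 6.96 for del(attP-Rel5)d9lac, 3.75 for del(8-13)d11lac and 13.3 for del(8-13)rXII. The 13.3 is that of the Msx1 site 48.7 kb downstream, where the wild-type peak was also weak in the alleles that had it: it was 15.3 in del(8-13)d11lac, with values of 3.36 for del(attP-Rel5)d9lac and 4.04 for del(1-13)d9lac. All 6 whole-limb peaks of Msx2 were called in each of the 4 alleles. Wild-type forelimb also had most of them: 31 of 33 had a distal and a proximal peak, against 90.7%.

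**Figure D5:**
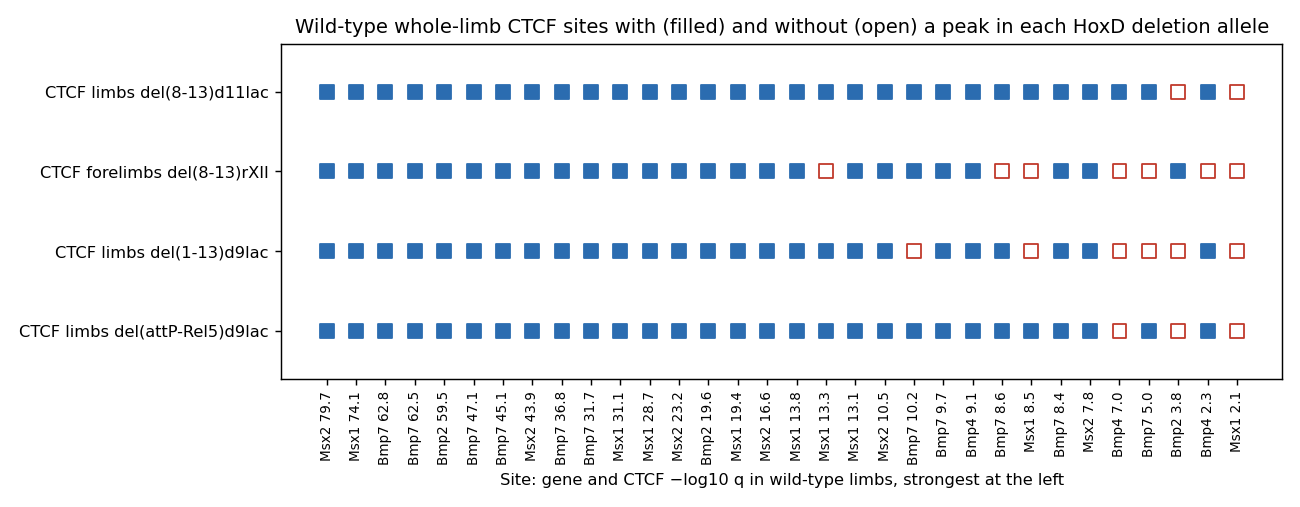
Whole-limb CTCF sites near the 5 genes, labelled with the gene and ordered by −log10 q in wild-type limbs, with (filled) or without (open) a CTCF peak in each deletion allele. Open squares are found only among sites with a wild-type −log10 q of at most 13.3.

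New peaks were rare. CTCF peaks without a wild-type CTCF peak in any tissue numbered 0 of 34 in del(1-13)d9lac (5.19% of its whole list), 0 of 37 in del(attP-Rel5)d9lac (2.94%), 3 of 54 in del(8-13)d11lac (7.08%) and 1 of 30 in del(8-13)rXII (4.62%). The strongest, named after its value was seen, lay 96.0 kb downstream of Bmp4 in del(8-13)d11lac (20.0), with a minus-strand motif of 14.7 bits. Another was the peak in the Bmp4 UTR. The remaining site, also named after its values were seen, lay 30.5 kb downstream of the start in a Bmp7 intron and had a peak in both del(8-13)d11lac (4.89) and del(8-13)rXII (3.31). For RAD21, 13 of 20 whole-limb peaks were also called in del(8-13)rXII, or 65.0% (43.3 to 81.9), against 45.2% of all. In wild-type limbs the median −log10 q was 53.5 for these 13 and 8.18 for the others. The RAD21 peaks of the windows were also stronger than their list, with a median of 25.1 against 13.6. RAD21 of del(8-13)rXII differs from the wild type in length too. Its list is shorter than the wild-type one, at 15927 peaks in del(8-13)rXII and 33707 in wild-type limbs.

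Matches to the CTCF matrix were found on both strands at each gene but Bmp2. Of the 67 CTCF sites, a match on the plus strand was found at 20, on the minus strand at 22 and on neither at 25. Of the 32 sites with a whole-limb CTCF peak, 26 had a match, or 81.3%. Over the whole genome 80.6% of whole-limb CTCF peaks had one, against 5.00% of control windows 2 kb away. The 2 shared sites of Bmp2 were both plus-strand, in the direction of its transcription. Going downstream from Msx2, the 6 sites of all 7 CTCF lists read plus, minus, plus, plus, minus and minus. These are mostly weak matches: at a threshold that 1% of control windows pass, 1 of the 6 had a match, the minus-strand site 46.4 kb downstream, so no order of strands can be read there. Of all 23 sites of the 7 CTCF lists, 20 had a match at the first threshold and 13 at the stricter one, which the Bmp7 site in the Spo11 intron and the Msx1 site 80.3 kb upstream also missed. At Bmp7 the upstream sites in the Spo11 intron and 56.1 kb upstream were minus-strand and that at 59.5 kb was plus-strand, and downstream the sites at 92.0, 115 (chosen after its values were seen) and 167 kb were minus-strand and that at 109 kb plus-strand. At Msx1 the sites 72.0 and 32.2 kb downstream were minus-strand, and those 10.2 kb downstream and 80.3 kb upstream plus-strand. Among the 23 sites of all 7 lists, 3 had no match: the 2 Msx1 sites whose sequences are printed above and the Bmp7 site 8.87 kb upstream. The Bmp7 site had a minus-strand match when 100 bp around the summit were read, and the Msx1 sites did not. A match was also lacking at 7.79% of peaks as strong as the Msx1 site 7.56 kb downstream and at 8.11% of those as strong as the site 70.9 kb upstream. That no match was found says only that these letters are not in these windows.

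The other genes of the pathway, 19 from a list by role, were spread around the median of all genes in CTCF density. In distal forelimb 9 of the 19 were above the median of all genes and in proximal forelimb 10, and each had at least 1 CTCF peak. The genes with the most and the fewest peaks of each role in distal forelimb are given, with their proximal count after the distal one. These counts are not scaled to the length of the window. Among the ligands, Bmp6 had 10 and 11 and Bmp5 7 and 7. Per 100 kb, however, Gdf5 was the highest ligand, with 3.91 distal and 5.38 proximal peaks, against 2.82 and 3.10 for Bmp6. Among the receptors, Bmpr1a, a type I receptor, had 24 distal and 22 proximal peaks and Bmpr1b, the type I receptor of digit cartilage, 11 and 16. Among the antagonists that bind BMPs outside the cell, Chrd had 14 and 16 and Fst 5 and 7. Among the signal transducers, the inhibitory Smad6 had 26 and 24 and Smad1, which carries the signal, 7 and 10. Among the Id targets, which encode inhibitors of basic helix-loop-helix factors, Id3 had 24 and 23 and Id4 3 and 3. Per 100 kb of window, the medians were 3.91 in distal and 4.46 in proximal forelimb over the 19 genes, against 4.28 and 4.40 over all genes. CTCF summits within 1 kb of the start were at 5 of the 19 in distal forelimb (Gdf5, Bmpr1b, Acvr1, Grem1 and Id4), against 23.3% of all genes. They were at 3 of the 19 in proximal forelimb (Gdf5, Bmpr1b and Acvr1), against 23.4%.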

How the data were processed

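The data are 11 deposited narrowPeak lists of CTCF, RAD21 and SMC1 libraries of E12.5 mouse limbs. Per the submitters' processing notes, cutadapt, Bowtie2 and MACS2 were used with build mm10, with no versions given. The deposited score of a row was not used further. The fold enrichment at the summit is a ratio of signal to background from the authors' peak caller. It also gave the deposited −log10 p and −log10 q, whose minimum per list is a q of about 0.05. The summit position within each peak is as deposited. Read depth is unknown and limits every strength.

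Rows of 1 region with several summits were merged, keeping the strongest, and only autosomes and sex chromosomes were used. No peak passed the end of its chromosome in GRCm38.p6, which has the coordinates of mm10. Genes came from GENCODE M21. Peaks sharing at least 1 bp were shared, and shares carry Wilson 95% intervals. Strengths were compared with those of all peaks of the same list with a −log10 q within a factor of 1.2. Peaks without a partner were tied at the middle of their ranks, so weak ones could not reach a low percentile. The motif matrix started from the most enriched word that a program found at the 2000 strongest whole-limb summits, and its best hit at most 50 bp away from each summit was scored. The overlap of peaks and the motif search were tested on simulated data, and the other steps were not. Python 3.11.15, pandas 2.3.3, scipy 1.17.1 and pysam 0.24.0 were used.

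The members and lists were chosen with earlier results of these data known. Sites named with all values are, per gene, the 3 strongest by whole-limb CTCF, those within 1 kb of the start, and up to 3 each of the strongest distal-only peaks, proximal-only peaks and distal cohesin peaks without CTCF. Pathway genes named are those with the most and the fewest distal CTCF peaks of each role. Any site outside this rule is marked as chosen after its values were seen. With 1 library per group there were no tests and no p-values of differences.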

Additional observations from a re-analysis of the deposited data

How the results depend on the processing

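Of 84 alternative values for the counts and shares, 69 moved by less than their counting interval, or by less than 1.5 times for counts, and none turned round. In lists of equal length (each reduced to its strongest peaks) the windows held 32 distal and 28 proximal CTCF peaks, and with flanks of 50 kb 35 proximal peaks. With only peaks whose −log10 q reached 10, 95% of distal and 95% of proximal peaks were shared, and in equal lists 100% of proximal peaks. RAD21 covered 46.9% and SMC1 50.0% of distal CTCF peaks in equal lists, which keep only the strongest CTCF peaks. Shares over all peaks are not given under these settings, so the alternative shares cannot be set beside the genome. With the same threshold, 100% of whole-limb CTCF peaks were found in del(8-13)d11lac and 50.0% in del(8-13)rXII, whose strengths are lowest. With flanks of 50 kb the shares were 95% in del(1-13)d9lac, 100% in del(attP-Rel5)d9lac and 100% in del(8-13)d11lac. RAD21 of wild-type limbs was found in del(8-13)rXII for 92.3% of peaks in equal lists. At a motif threshold that 1% of control windows pass, 12 sites had a plus-strand motif. Percentiles among like-strength peaks moved by at most 18.6 with the factor of 1.5, which was chosen after seeing the data. No paired analysis was possible because each group has 1 library and no result comes from a test. Leaving out a replicate was likewise not possible. Unknown depth limits any statement on absent peaks.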
